A study of Arabidopsis thaliana with 30 samples.

Results

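The 10 genes described here encode late embryogenesis abundant (LEA) and other protective proteins that Arabidopsis thaliana makes in answer to the hormone abscisic acid (ABA). They were picked by locus identifier, with earlier results of these data known, and are 10 of the 38088 genes listed in the expression table. They are the dehydrins RAB18 (AT5G66400) and XERO1 (AT3G50980), the LEA proteins LEA7 (AT1G52690), ABR (AT3G02480), EM1 (AT3G51810) and EM6 (AT2G40170), the desiccation- and cold-responsive pair RD29A (AT5G52310) and LTI65 (AT5G52300, also called RD29B), and the lipid transfer proteins LTP3 (AT5G59320) and LTP4 (AT5G59310). The labels name no ABA treatment, so "ABA-induced" describes what the genes are known for and was not tested.

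Messenger RNA was sequenced from 7-d-old seedlings of 5 genotypes: ski2 dcl4 dcl2, ski2 dcl4, smxl4 smxl5, smxl6 smxl7 smxl8 and the wild type Col-0. Each genotype was sampled after 85 min at 44 °C, with sealed agar plates held in a water bath, and without heat at 22 °C, with 3 libraries in each of the 10 groups. The helicase SKI2 passes mRNA to the cytoplasmic exosome for decay, and the Dicer-like proteins DCL4 and DCL2 make small RNAs from long double-stranded RNA. SMXL4 and SMXL5 are needed to form phloem, whereas strigolactone acts by removing the repressors SMXL6, SMXL7 and SMXL8. The ski2 dcl4 dcl2 and ski2 dcl4 seedlings therefore share the loss of SKI2 and DCL4 and differ, by label, in DCL2. Nothing in the labels ties the 3 libraries of a group to separately grown plants; the spread that p-values rest on may thus be technical.

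As background, ABA rises when water is short and during seed maturation. It is bound by PYR/PYL receptors, which then hold back the clade A PP2C phosphatases; this frees SnRK2 kinases to act on bZIP factors of the ABF and ABI5 group, which bind ACGTG-cored elements (ABREs) in target promoters. LEA proteins are hydrophilic and accumulate as cells dry, where they are thought to protect other proteins and membranes, and the Em-type LEA proteins are best known from maturing seed. In seedlings without stress most of these genes are kept low, and lipid transfer proteins, which carry lipids and are secreted to the cell wall, are made mainly in the epidermis.

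The windows before the genes show where these elements lie. In the 250 bases upstream of the annotated gene start (RefSeq annotation of TAIR10.1, matched by locus identifier), ACGTG was found on either strand in 7 of the 10 genes (70.0%) and at 2 or more separate places in 6 (60.0%), against 22.9% and 4.98% of 27443 protein-coding genes; overlapping matches were counted as 1 place. The longer ACGTGNC was found in 6 genes (60.0%), against 8.57% of all. CCGAC, the core of the dehydration-responsive element bound by DREB/CBF factors, was found in 4 genes (40.0%), against 12.0%. The heat shock element pairs GAANNTTC and TTCNNGAA were found in 1 gene (LEA7) and in none of the 10, against 9.55% and 7.68% of all genes. A match is a run of letters, not a shown binding site. Bases past the annotated gene start or farther upstream were not searched, so a gene without a match may hold one there. Within these 250 bases LEA7 and LTI65 held the most ACGTG places and ABR has a pair. RD29A has CCGAC but no ACGTG there, and LTP3, like LTP4, has neither. The 5 windows printed here cover these contrasts among the genes. Each runs 5′ to 3′ on the gene's strand, and capitals mark ACGTG and CCGAC on either strand, so that CACGT and CACGTG are ACGTG matches too.
LEA7 (chr1:19619474-19619723, plus strand): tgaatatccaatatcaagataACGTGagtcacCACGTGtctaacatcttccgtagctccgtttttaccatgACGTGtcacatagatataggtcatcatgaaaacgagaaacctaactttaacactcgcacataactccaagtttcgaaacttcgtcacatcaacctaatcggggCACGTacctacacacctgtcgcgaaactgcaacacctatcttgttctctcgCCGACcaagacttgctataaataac
ABR (chr3:511970-512219, plus strand): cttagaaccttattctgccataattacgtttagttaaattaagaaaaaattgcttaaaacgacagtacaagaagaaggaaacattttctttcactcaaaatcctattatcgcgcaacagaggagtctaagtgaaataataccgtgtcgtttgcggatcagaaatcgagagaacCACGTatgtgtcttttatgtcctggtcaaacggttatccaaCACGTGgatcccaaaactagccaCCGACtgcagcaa
LTI65 (chr5:21236771-21237020, plus strand): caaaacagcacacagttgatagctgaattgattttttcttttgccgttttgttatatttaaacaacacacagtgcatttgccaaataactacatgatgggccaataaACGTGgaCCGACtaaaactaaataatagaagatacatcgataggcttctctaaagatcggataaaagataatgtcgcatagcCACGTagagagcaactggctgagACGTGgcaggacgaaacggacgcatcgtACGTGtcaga
RD29A (chr5:21240467-21240716, plus strand): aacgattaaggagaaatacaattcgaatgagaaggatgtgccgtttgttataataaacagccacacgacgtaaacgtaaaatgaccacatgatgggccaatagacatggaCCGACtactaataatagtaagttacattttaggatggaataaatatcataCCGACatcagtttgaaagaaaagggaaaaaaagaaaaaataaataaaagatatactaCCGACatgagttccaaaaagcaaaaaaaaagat
LTP3 (chr5:23928704-23928953, plus strand): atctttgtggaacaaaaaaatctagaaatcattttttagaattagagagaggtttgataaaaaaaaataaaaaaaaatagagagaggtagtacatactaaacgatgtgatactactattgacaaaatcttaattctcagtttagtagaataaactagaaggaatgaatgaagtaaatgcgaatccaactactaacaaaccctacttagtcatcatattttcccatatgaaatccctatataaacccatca

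LEA7 and LTI65 each held ACGTG at 4 places, RAB18 at 3 places, ABR, EM1 and EM6 at 2 places and XERO1 at 1 place. RD29A held CCGAC at 3 places. The RAB18 window lies inside the neighbouring gene PLP3B, on the other strand. Gene models matter for the counting as well. RAB18 (chr5:26518277-26519447, minus strand, 2 exons) overlaps PLP3B, and LEA7 (chr1:19619724-19621534, plus strand, 2 exons) overlaps AT1G52695 on the minus strand, which was listed at 0 in all 30 libraries. Whether reads were counted by strand is not stated, so reads of overlapping genes cannot be told apart; PLP3B itself was at 12.7 ± 0.559 FPKM in control ski2 dcl4 and 14.1 ± 0.781 FPKM in control Col-0 seedlings (SD, n = 3 each). LTI65 (chr5:21237021-21239531) and RD29A (chr5:21240717-21243644) are neighbours on the plus strand with 1185 bases between them. Their coding identity is 56.6% and their longest shared stretch 41 bases, so reads from it may have been divided between them. LTP4 (chr5:23924990-23925957, minus strand) and LTP3 (chr5:23928954-23929816, plus strand) are neighbours too, with 84.5% coding identity and a longest shared stretch of 44 bases, so reads may have been divided between them and their separate levels are uncertain.

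Values are in FPKM, counted fragments scaled to transcript length and library size, a unit inferred from the table itself. Summed FPKM was 931940 to 1099793 per heated library and 735524 to 904077 per control library. The heat label held in every genotype, since the heat-induced factor HSFA2 had group means of 312 to 419 FPKM after heat against 0.408 to 0.818 FPKM at control. SKI2 was lower in control ski2 dcl4 seedlings than in control Col-0 seedlings (3.35 against 6.41 FPKM) and DCL2 lower in control ski2 dcl4 dcl2 than in control Col-0 (3.25 against 5.61 FPKM), while DCL4 was at 3.44 against 3.41 FPKM in control ski2 dcl4 and Col-0. SMXL5 and SMXL4 were higher in the libraries labelled smxl4 smxl5 than in Col-0 at control (15.0 against 4.57 FPKM, and 3.22 against 1.93 FPKM), which goes against that label as far as transcript level can check it, so those libraries are named by their label throughout; after heat SMXL4 was lower there (1.08 against 2.22 FPKM). SMXL6 was lower in control smxl6 smxl7 smxl8 than in control Col-0 (3.13 against 5.44 FPKM), while SMXL7 was at 8.20 against 8.09 FPKM at control, not lower, and at 3.19 against 8.09 FPKM in heated seedlings. In the libraries labelled smxl4 smxl5, heat replicate 3 stood apart for these genes, with a summed FPKM over the 10 genes of 293, against 64.3 and 85.7 in the other two heated libraries of that label. Green shoot and root genes were detected in all groups, except that CAB1 was listed at 0 throughout.

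The 10 genes were far higher in ski2 dcl4 seedlings than in any other genotype, both after heat and at control. Their summed level had a median of 7877 FPKM (7337 to 12477) in heated and 4906 FPKM (3680.0 to 5425) in control ski2 dcl4 libraries, against 62.9 FPKM (56.2 to 76.6) in heated and 70.5 FPKM (61.0 to 76.2) in control Col-0 libraries. That is 0.784% to 1.32% of all FPKM in heated and 0.5% to 0.734% in control ski2 dcl4 seedlings, against 0.00532% to 0.00719% and 0.00764% to 0.00942% in Col-0. In ski2 dcl4 dcl2 the sum was 90.4 to 139 FPKM after heat and 84.6 to 119.6 FPKM at control. For 9 of the 10 genes the lowest of the 6 ski2 dcl4 libraries was above the highest of the other 24 libraries, which was so for 2.76% of the 21531 genes tested. For EM1 the lowest was 1.30 FPKM, against a highest other library of 1.37 FPKM. Since the 10 genes were chosen with earlier results of these data known, this is a description and not a test. These are bulk seedlings, in which fewer cells expressing a gene and less RNA per cell cannot be told apart.

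**Figure D1:**
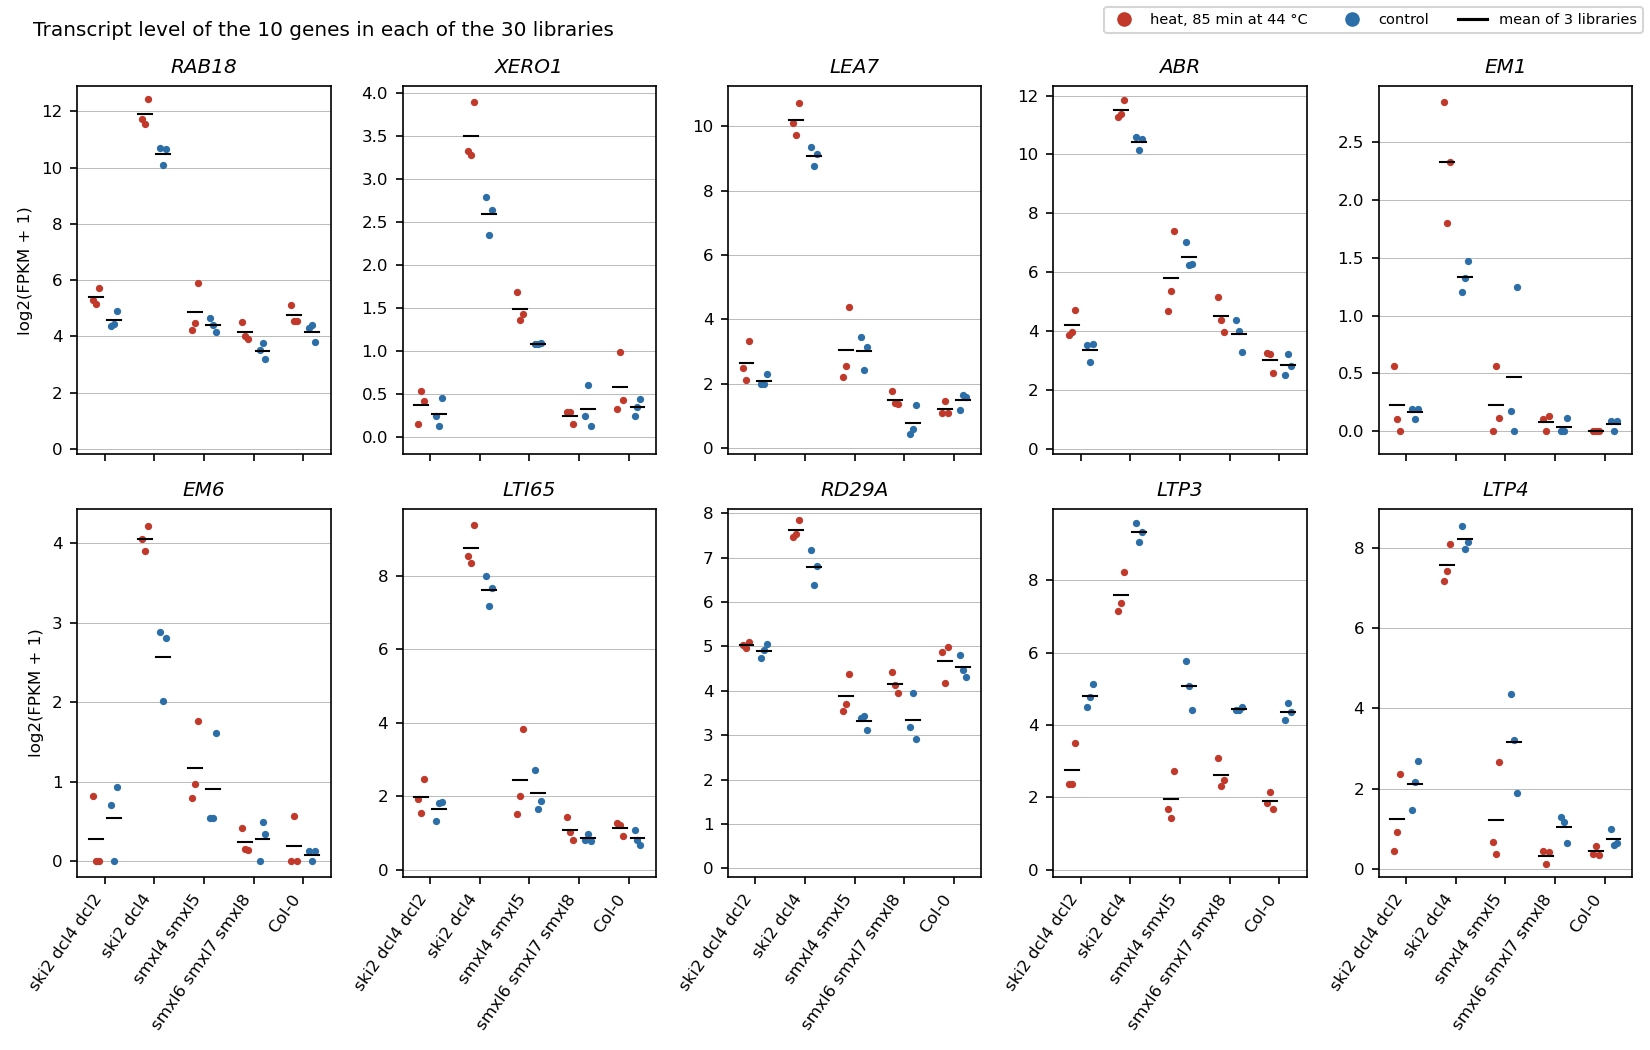
Level of each of the 10 genes in all 30 libraries, as log2(FPKM + 1) on the vertical axis, by genotype on the horizontal axis; red points are heated libraries, blue points control libraries and bars the means of 3. The 6 ski2 dcl4 libraries sit above nearly all others in every panel, with RAB18 between 1092 and 5546 FPKM there and between 8.15 and 59.2 FPKM elsewhere.

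RAB18, a glycine-rich dehydrin and a standard reporter of ABA action, had 3426, 2962 and 5546 FPKM in heated ski2 dcl4 libraries, against 34.0, 22.5 and 22.5 FPKM in heated Col-0 libraries. At control it had 1667, 1092 and 1634 FPKM in ski2 dcl4, against 18.6, 19.9 and 13.0 FPKM in Col-0. Ranked by level within each library, it took places 28, 33 and 12 among all genes in heated ski2 dcl4 libraries, against places 4203, 5840 and 5788 in heated Col-0. With DCL2 also mutated the level was far nearer the wild type's, at 38.0, 34.6 and 52.0 FPKM in heated and 19.6, 20.5 and 28.9 FPKM in control ski2 dcl4 dcl2 libraries. Ordered by median, heated ski2 dcl4 came highest, then control ski2 dcl4, then heated ski2 dcl4 dcl2, each clear of the next group's range. The heated libraries labelled smxl4 smxl5, further down the order, ran from 17.9 to 59.2 FPKM and so spanned the heated ski2 dcl4 dcl2 range. The 6 groups from heated Col-0 to heated smxl6 smxl7 smxl8 overlapped their neighbours, and control smxl6 smxl7 smxl8 came lowest at 10.4 FPKM.

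XERO1, a small dehydrin, was below 1 FPKM in every library outside ski2 dcl4 and the libraries labelled smxl4 smxl5. It had 9.02, 8.70 and 13.9 FPKM in heated ski2 dcl4, against 0.255, 0.990 and 0.355 FPKM in heated Col-0. At control the levels were 5.94, 4.10 and 5.23 FPKM in ski2 dcl4, against 0.191, 0.276 and 0.364 FPKM in Col-0. The groups from heated Col-0 downwards, which include both ski2 dcl4 dcl2 groups (0.300 ± 0.172 FPKM heated, 0.215 ± 0.141 FPKM control), all overlapped their neighbours in the order of medians.

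LEA7 and ABR, both small LEA proteins, were among the abundant mRNAs of ski2 dcl4 seedlings and low in the wild type. LEA7 had 1089, 848 and 1711 FPKM in heated ski2 dcl4, against 1.12, 1.77 and 1.13 FPKM in heated Col-0, and 661, 434 and 560.5 FPKM in control ski2 dcl4, against 1.29, 2.12 and 2.03 FPKM in control Col-0. Its rank within a library was 104, 174 and 124 in control ski2 dcl4, against 18974, 17571 and 17668 in control Col-0. ABR had 2499, 2656 and 3712 FPKM in heated ski2 dcl4, against 8.42, 8.21 and 4.89 FPKM in heated Col-0, and 1555, 1138 and 1459 FPKM in control ski2 dcl4, against 4.70, 8.27 and 6.04 FPKM in control Col-0. The groups of both genes did not overlap between ski2 dcl4 and Col-0. In the order of medians the control libraries labelled smxl4 smxl5 followed the ski2 dcl4 groups for both genes, at 7.87 FPKM for LEA7 and 77.2 FPKM for ABR, with overlapping ranges from there down to control ski2 dcl4 dcl2 for LEA7 and to heated ski2 dcl4 dcl2 for ABR.

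EM1 and EM6, Em-type LEA proteins known from seed, were low in ski2 dcl4 and lower elsewhere. EM6 had 15.6, 14.0 and 17.7 FPKM in heated and 6.38, 3.04 and 6.02 FPKM in control ski2 dcl4 libraries. In Col-0 it was listed at 0, 0.489 and 0 FPKM after heat and at 0.0945, 0 and 0.0900 FPKM at control. EM1 had 6.18, 2.49 and 4.02 FPKM in heated and 1.30, 1.50 and 1.78 FPKM in control ski2 dcl4, was listed at 0 in all 3 heated Col-0 libraries and had 0.0650, 0 and 0.0619 FPKM in control Col-0. Both passed the filter on low values only through the ski2 dcl4 libraries, so no fold change and no test of ski2 dcl4 against another genotype is given for them. In the libraries labelled smxl4 smxl5, EM6 had 0.734, 0.956 and 2.40 FPKM in heated and 0.461, 0.463 and 2.07 FPKM in control seedlings, and EM1 reached 1.37 FPKM in 1 control library.

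RD29A and LTI65 are adjacent genes that differed in how low they were in the wild type. LTI65, which answers mainly to ABA, had 374, 327 and 672 FPKM in heated ski2 dcl4, against 1.40, 1.34 and 0.889 FPKM in heated Col-0, and 256, 144 and 204 FPKM in control ski2 dcl4, against 1.12, 0.759 and 0.600 FPKM in control Col-0. RD29A, which also answers to cold and drought through dehydration-responsive elements, had 174, 185 and 230.2 FPKM in heated ski2 dcl4, against 28.5, 17.0 and 30.6 FPKM in heated Col-0. At control RD29A had 144, 81.9 and 111 FPKM in ski2 dcl4, against 26.9, 21.2 and 18.8 FPKM in Col-0. The ski2 dcl4 and Col-0 libraries did not overlap for either gene. For RD29A the groups from heated ski2 dcl4 dcl2 (median 31.6 FPKM) to the heated libraries labelled smxl4 smxl5 (12.0 FPKM) each overlapped the next in order. For LTI65 the groups below ski2 dcl4 overlapped their neighbours except between control ski2 dcl4 dcl2 (2.50 FPKM) and heated Col-0 (1.34 FPKM).

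LTP3 and LTP4 had lower means after heat than at control in all 5 genotypes. LTP3 had 140.2, 164 and 298 FPKM in heated ski2 dcl4, against 2.62, 3.42 and 2.21 FPKM in heated Col-0, and 756, 532 and 644 FPKM in control ski2 dcl4, against 16.6, 23.2 and 19.4 FPKM in control Col-0. LTP4 had 143, 169.5 and 273 FPKM in heated ski2 dcl4, against 0.305, 0.493 and 0.282 FPKM in heated Col-0, and 373, 249.5 and 280.3 FPKM in control ski2 dcl4, against 0.988, 0.512 and 0.579 FPKM in control Col-0. In the order of medians, all 5 control groups of LTP3 came above the heated groups of the other 4 genotypes. LTP4 was less regular, with heated and control ski2 dcl4 libraries overlapping each other.

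The 8 genes that passed the filter on low values without the ski2 dcl4 libraries all rose in ski2 dcl4 seedlings relative to Col-0, in both conditions (limma's moderated test on log2(FPKM + 1) across 21531 genes, Benjamini-Hochberg adjusted p below 0.05 for a call). The background was high: 16.1% of tested genes rose and 17.1% fell at control, and 22.3% rose and 17.2% fell after heat. The p-values do not allow for the choice of these genes with earlier results known. After heat the largest changes on the log2(FPKM + 1) scale were in LEA7, by 8.97 ± 0.41 (SE, adjusted p = 1.27e-13, 908-fold between means), and in ABR, by 8.51 ± 0.46 (adjusted p = 2.55e-12, 412-fold). RAB18 rose by 7.16 ± 0.32 (adjusted p = 1.27e-13, 151-fold), LTI65 by 7.63 ± 0.40 (adjusted p = 1.7e-12, 378-fold) and LTP4 by 7.12 ± 0.54 (adjusted p = 7.64e-10, 543-fold). LTP3 rose 73.0-fold, XERO1 19.8-fold and RD29A 7.74-fold. The folds are ratios of means without the pseudocount, so they run above the log2 changes where Col-0 is near 0. By this ratio LTP4 came ahead of ABR, over a heated Col-0 mean of 0.360 FPKM.

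At control the same 8 genes rose, with LEA7 up by 7.61 ± 0.41 (SE) on the log2 scale (adjusted p = 3.96e-12, 304-fold between means), ABR by 7.58 ± 0.46 (adjusted p = 2.79e-11, 218-fold), LTP4 by 7.47 ± 0.54 (adjusted p = 6.17e-10, 434-fold) and LTI65 by 6.76 ± 0.40 (adjusted p = 2.22e-11, 244-fold). RAB18 rose 85.3-fold, LTP3 32.6-fold, XERO1 18.4-fold and RD29A 5.04-fold. By ratio of means LTP4 was the largest here, over a control Col-0 mean of 0.693 FPKM.

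**Figure D2:**
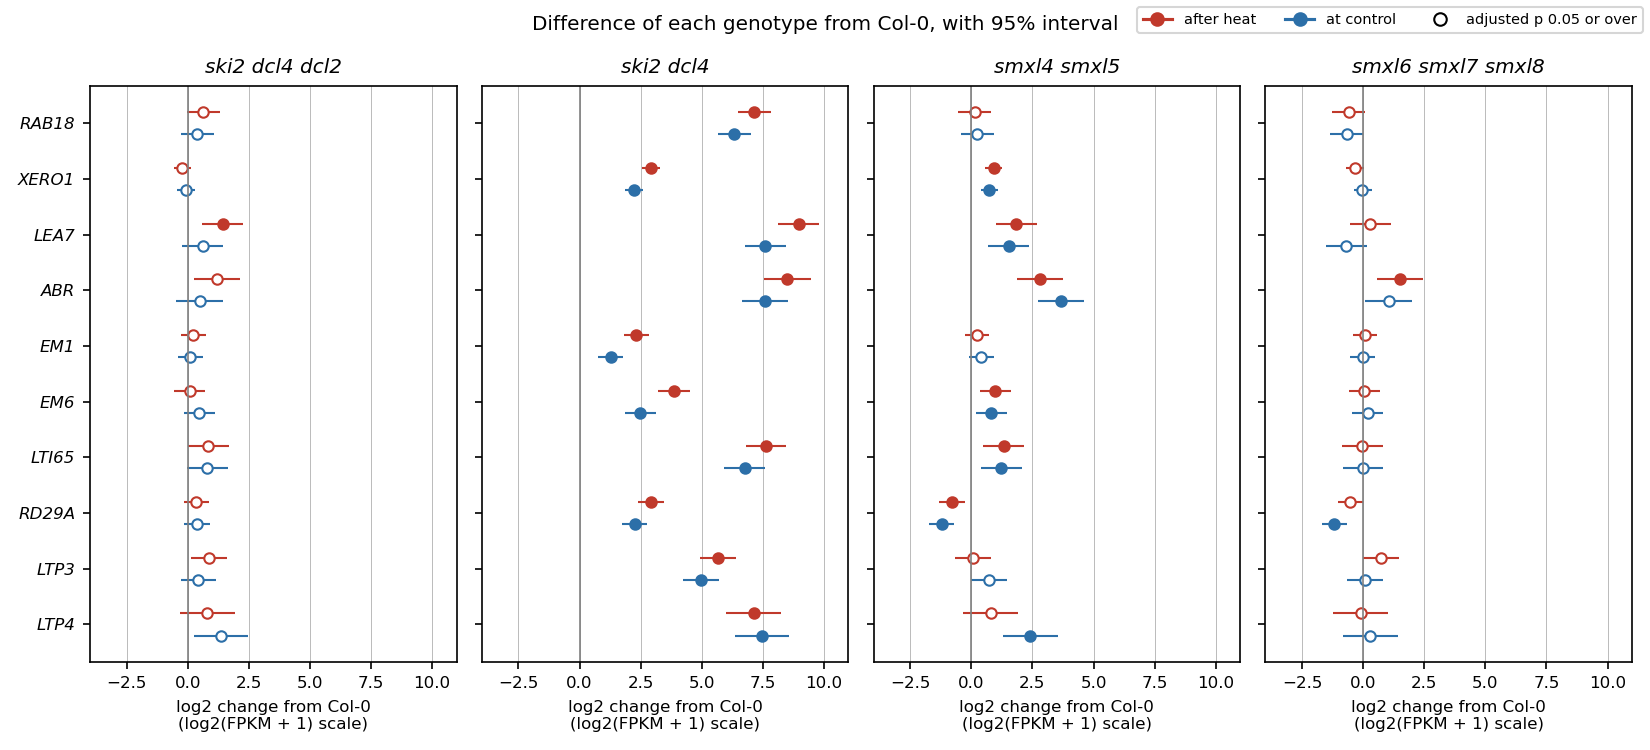
Log2 change from Col-0 of each gene, with 95% intervals, in 4 panels by genotype; red is after heat, blue is control, and open points have an adjusted p of 0.05 or more. All points of the ski2 dcl4 panel lie above 0, with LEA7 at 8.97 after heat and 7.61 at control (EM1 and EM6 were tested only because of these libraries), and the highest of the ski2 dcl4 dcl2 panel is LEA7 after heat, at 1.43.

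With DCL2 mutated as well, the same 8 genes fell relative to ski2 dcl4, in both conditions. EM1 and EM6 were at 0 to 0.482 FPKM and 0 to 0.909 FPKM over the 6 ski2 dcl4 dcl2 libraries, against at least 1.30 and 3.04 FPKM in every ski2 dcl4 library. After heat, LEA7 was at 5.68 ± 3.01 FPKM in ski2 dcl4 dcl2, against 1216 ± 445 FPKM in ski2 dcl4 (SD, n = 3 each), a fall by 7.54 ± 0.41 (SE) on the log2 scale (adjusted p = 4.61e-12) that left the mean 214-fold lower. ABR was at 17.9 ± 6.53 FPKM in heated ski2 dcl4 dcl2, against 2956 ± 659.5 FPKM in heated ski2 dcl4, and RAB18 at 41.5 ± 9.22 against 3978 ± 1378 FPKM. LTI65 was at 3.10 ± 1.33 against 458 ± 187 FPKM, which was 148-fold lower. At control, LTP4 was at 3.57 ± 1.85 FPKM in ski2 dcl4 dcl2, against 301 ± 64.1 FPKM in ski2 dcl4, 84.3-fold lower. RD29A had the smallest such difference of the 8 genes for which a fold is given, at 29.0 ± 3.41 FPKM in control ski2 dcl4 dcl2, against 112 ± 31.1 FPKM in control ski2 dcl4, 3.87-fold lower. Among all tested genes 21.2% fell and 15.6% rose in this comparison after heat, and 11.2% fell and 15.2% rose at control. It uses the same ski2 dcl4 libraries as the comparison with Col-0.

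Against Col-0 itself, ski2 dcl4 dcl2 seedlings showed no called change of the 10 genes at control (limma, lowest adjusted p 0.404 for LTP4), where 1.66% of all tested genes were called. The libraries of 4 of the 10 genes (LEA7, EM1, LTI65 and LTP4) did not overlap, which was so for 18.9% of all tested genes. LEA7 had 3.00, 2.98 and 3.93 FPKM in control ski2 dcl4 dcl2, against 1.29, 2.12 and 2.03 FPKM in control Col-0. After heat 5.93% of all genes were called, and LEA7 was the member among them. It had 4.65, 3.31 and 9.07 FPKM in heated ski2 dcl4 dcl2, against 1.12, 1.77 and 1.13 FPKM in heated Col-0, a rise by 1.43 ± 0.41 (SE) on the log2 scale (adjusted p = 0.0377). That call was lost when any 1 of 5 of the 6 libraries was left out (all but ski2 dcl4 dcl2 heat replicate 2; adjusted p 0.0745 to 0.186), and when the spread was estimated from these groups alone (0.13). ABR was next, at 17.9 ± 6.53 FPKM in heated ski2 dcl4 dcl2, against 7.17 ± 1.98 FPKM in heated Col-0 (SD, n = 3 each; limma adjusted p = 0.136).

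The libraries labelled smxl4 smxl5 differed from Col-0 in 7 of the 10 genes at control, 6 higher and 1 lower, where 15.3% of all tested genes were higher and 14.8% lower. ABR was at 128, 75.4 and 77.2 FPKM, against 4.70, 8.27 and 6.04 FPKM in Col-0, a rise by 3.67 ± 0.46 (SE) on the log2 scale (adjusted p = 2.23e-06, 14.8-fold between means). LTP4 was at 19.5, 8.35 and 2.72 FPKM, against 0.988, 0.512 and 0.579 FPKM in Col-0 (adjusted p = 0.00162). LEA7 rose as well, to 7.40 ± 2.80 FPKM, against 1.82 ± 0.456 FPKM in Col-0 (adjusted p = 0.0062), LTI65 to 3.46 ± 1.83, against 0.827 ± 0.267 FPKM (adjusted p = 0.0237), and XERO1 to 1.13 ± 0.0115, against 0.277 ± 0.0864 FPKM (adjusted p = 0.00251; SD, n = 3 in each group, limma). EM6 was at 0.461, 0.463 and 2.07 FPKM there (adjusted p = 0.0476). RD29A went the other way, at 9.40, 9.75 and 7.70 FPKM, against 26.9, 21.2 and 18.8 FPKM in Col-0, a change of -1.22 ± 0.25 (SE) on the log2 scale (adjusted p = 0.000791).

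RAB18, EM1 and LTP3 were not called at control, with RAB18 at 20.5 ± 3.72 FPKM in the libraries labelled smxl4 smxl5 and 17.2 ± 3.65 FPKM in Col-0 (SD, n = 3 each; limma adjusted p = 0.606). The EM6 call was lost without smxl4 smxl5 control replicate 3 (adjusted p = 0.303) or any 1 of the Col-0 libraries (0.0823 to 0.118), and the LTI65 call without smxl4 smxl5 control replicate 1 (0.135) or Col-0 control replicates 2 or 3 (0.0629 and 0.0707).

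After heat 6 of the 10 genes were called in the libraries labelled smxl4 smxl5 against heated Col-0, 5 higher and 1 lower, where 19.1% of all tested genes were higher and 17.2% lower. ABR was at 24.4, 39.5 and 166 FPKM, against 8.42, 8.21 and 4.89 FPKM in Col-0 (log2 change 2.80 ± 0.46 SE, limma adjusted p = 6.56e-05), and LEA7 at 3.63, 4.90 and 19.9 FPKM, against 1.12, 1.77 and 1.13 FPKM (1.84 ± 0.41, adjusted p = 0.00121). The highest value in both came from heat replicate 3, the library that stood apart. Without it ABR changed by 2.01 (adjusted p = 0.000267) and LEA7 by 1.17 (adjusted p = 0.0106), while LTI65, at 1.86, 3.04 and 13.2 FPKM, lost its call (0.63 without it, adjusted p = 0.138; 1.32 with it, adjusted p = 0.0131). XERO1 was the steadiest, at 2.23, 1.57 and 1.70 FPKM, against 0.255, 0.990 and 0.355 FPKM in heated Col-0 (0.91 with that library, 0.94 without). EM6 (0.98, adjusted p = 0.0154) lost its call without that library (0.107) or without Col-0 heat replicate 1 or 3 (0.0667 and 0.0565). RD29A was at 10.7, 12.0 and 19.7 FPKM, against 28.5, 17.0 and 30.6 FPKM, with overlapping groups (-0.80, adjusted p = 0.0153); its call was lost when heat replicate 1 or 2 of that label, or replicate 1 or 3 of heated Col-0, was left out (0.0654 to 0.0801). The spread estimated from these groups alone left 1 of the 6 calls.

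In smxl6 smxl7 smxl8 seedlings 1 of the 10 genes was called in each condition. At control RD29A was lower, at 8.05, 14.5 and 6.49 FPKM, against 26.9, 21.2 and 18.8 FPKM in Col-0 (log2 change -1.18 ± 0.25 SE, limma adjusted p = 0.00131), where 13.4% of all tested genes were higher and 13.2% lower. RD29A was also lower at control under the smxl4 smxl5 label, a comparison that shares the Col-0 libraries. After heat ABR was higher, at 34.3, 19.8 and 14.7 FPKM, against 8.42, 8.21 and 4.89 FPKM in Col-0 (1.50 ± 0.46 SE, adjusted p = 0.0209), where 11.7% of all tested genes were higher and 12.1% lower. The ABR call was lost without smxl6 smxl7 smxl8 heat replicate 1 (adjusted p = 0.104) or Col-0 heat replicate 3 (0.0896). RAB18 had its lowest group here, 8.15 to 12.5 FPKM at control, against 13.0 to 19.9 FPKM in Col-0, without a call (adjusted p = 0.13).

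Few of these genes were called for heat outside ski2 dcl4. A gene without a call is not shown to be unchanged: RAB18, not called in Col-0, was at 26.3 ± 6.62 FPKM after heat, against 17.2 ± 3.65 FPKM at control, there. LTP3 fell in all 5 genotypes: to 201 ± 85.0 FPKM after heat, against 644 ± 112 FPKM at control, in ski2 dcl4; to 6.23 ± 3.51, against 27.4 ± 6.35 FPKM, in ski2 dcl4 dcl2; to 3.19 ± 2.13, against 35.6 ± 16.9 FPKM, in the libraries labelled smxl4 smxl5; to 5.34 ± 1.88, against 20.8 ± 0.660 FPKM, in smxl6 smxl7 smxl8; and to 2.75 ± 0.616, against 19.7 ± 3.31 FPKM, in Col-0 (SD, n = 3 each). The log2 changes were -1.74, -2.05, -3.13, -1.82 and -2.47 in that order, each ± 0.35 (SE), with limma adjusted p of 0.000217, 4.28e-05, 1.01e-07, 0.00015 and 2.74e-06. The heated and control libraries of LTP3 did not overlap in any genotype. In Col-0 it was the 1 member called, where 27.3% of all tested genes fell and 29.9% rose. LTP4 fell after heat in libraries with the smxl4 smxl5 label, at 0.588, 0.288 and 5.33 FPKM after heat, against 19.5, 8.35 and 2.72 FPKM at control, with overlapping groups (limma adjusted p = 0.00427, or 0.108 with the spread from these groups alone; 24% of all genes fell and 29.9% rose there).

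In ski2 dcl4 seedlings 9 of the 10 genes were called between heat and control, 8 higher and LTP3 lower, where 32% of all tested genes rose and 23.6% fell. RAB18 was at 3978 ± 1378 FPKM after heat, against 1464 ± 323 FPKM at control (SD, n = 3 each), a rise by 1.41 ± 0.32 (SE) on the log2 scale (limma adjusted p = 0.000759, 2.72-fold). XERO1 rose 2.07-fold (adjusted p = 0.000125), RD29A 1.75-fold (adjusted p = 0.00754), LTI65 2.27-fold (adjusted p = 0.019), LEA7 2.21-fold (adjusted p = 0.0253) and ABR 2.14-fold (adjusted p = 0.0487). EM6 rose by 1.49 on the log2 scale (adjusted p = 0.00027) and EM1 by 0.99 (adjusted p = 0.00139). LTP4 was not called, at 195 ± 68.7 FPKM after heat, against 301 ± 64.1 FPKM at control (adjusted p = 0.318). EM1 and EM6 passed the filter on low values only through the ski2 dcl4 libraries. With a pseudocount of 0.1 in place of 1, 4 genes were called. The calls of EM6 (limma adjusted p = 0.12), EM1 (0.136), LEA7 (0.0666), ABR (0.057) and LTI65 (0.0531) were lost.

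These heat calls rested on few libraries for some genes. ABR lost its call without any 1 of the 6 ski2 dcl4 libraries (adjusted p 0.0611 to 0.147). LEA7 and LTI65 lost theirs without ski2 dcl4 heat replicate 3, the highest of the 3 (0.127 and 0.114), or control replicate 2 (0.091 and 0.0873), and RD29A without control replicate 2 (0.0574).

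In ski2 dcl4 dcl2, RAB18 was the other member called with heat, at 41.5 ± 9.22 FPKM after heat, against 23.0 ± 5.13 FPKM at control (SD, n = 3 each; log2 change 0.82, limma adjusted p = 0.0386), where 25.8% of all tested genes rose and 24.3% fell. Its call was lost without heat replicate 1 or 3 (0.0581 and 0.152) or control replicate 1 or 2 (0.117 and 0.104), and with no filter on low values (0.0573) or upper-quartile rescaling (0.0503). In smxl6 smxl7 smxl8, RD29A was at 20.4, 16.4 and 14.4 FPKM after heat, against 8.05, 14.5 and 6.49 FPKM at control, with groups that overlapped by 1 library (0.81, adjusted p = 0.00903; 0.0703 without control replicate 3, 0.0802 with the spread from these groups alone), where 28.7% of all genes rose and 24.1% fell.

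**Figure D3:**
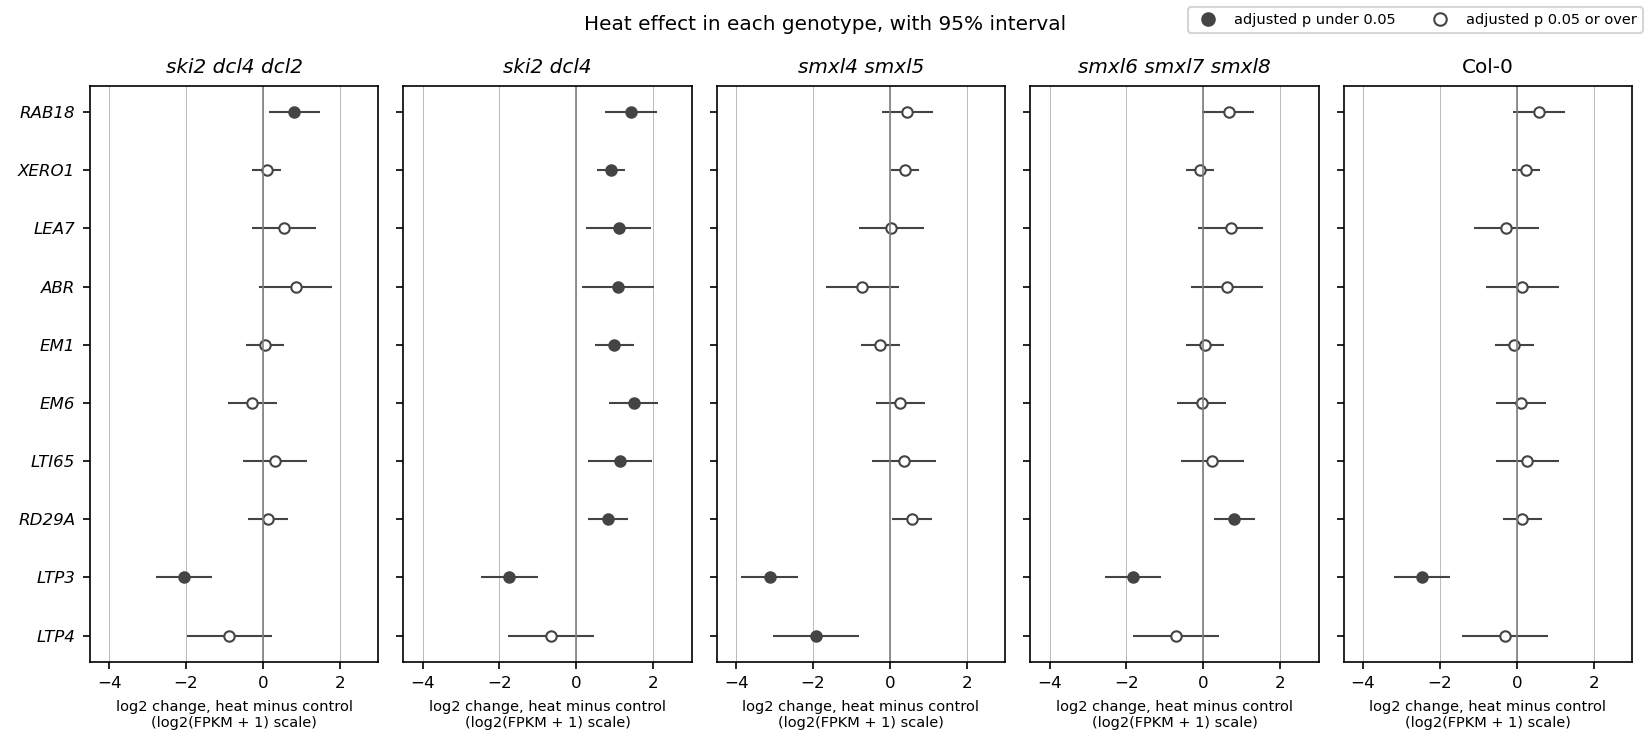
Log2 change with heat (heated minus control) of each gene in each genotype, with 95% intervals; filled points have an adjusted p below 0.05. LTP3 lies below 0 in every genotype (-1.74 to -3.13), and 8 genes lie above 0 with filled points in ski2 dcl4.

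The heat changes of ski2 dcl4 and Col-0 were also set against each other directly. No member was called for this difference (limma interaction term), where 0.372% of all tested genes were. Estimates for ski2 dcl4 minus Col-0 are given for the 8 genes that passed the filter on low values without the ski2 dcl4 libraries. They ran from -0.35 ± 0.76 (SE) for LTP4 (adjusted p = 0.912) to 1.36 ± 0.58 for LEA7 (adjusted p = 0.339). RAB18 had 0.83 ± 0.46 (adjusted p = 0.494). That heat was called for 9 members in ski2 dcl4 and 1 in Col-0 is therefore not shown to be a different response. No member was called in the interaction of the other 3 genotypes either, where 0.0464% (ski2 dcl4 dcl2), 2.08% (smxl4 smxl5) and 5.29% (smxl6 smxl7 smxl8) of all genes were.

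The 10 genes followed each other across libraries mainly through the ski2 dcl4 contrast. Over all 30 libraries Pearson correlations of log2(FPKM + 1) between the 45 pairs ran from 0.677 (RD29A with LTP3) to 0.994 (LEA7 with LTI65), with a median of 0.906. Over the 24 libraries of the other 4 genotypes they ran from -0.472 (ABR with RD29A) to 0.916 (LEA7 with LTI65), with a median of 0.306. LEA7 and LTI65 were the closest pair both ways. These are descriptions; the points share libraries and groups.

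Some genes followed several members closely over the 30 libraries. LEA4-5, a group 4 LEA gene, was among the 3 closest for 4 members (r = 0.991 with LTI65, 0.988 with LEA7, 0.969 with ABR and 0.949 with XERO1), and NADP-ME1, an NADP-malic enzyme, for 3 (0.975 with XERO1, 0.968 with EM6 and 0.967 with ABR). TSPO, a membrane protein made under stress, was among the 3 closest for LTI65 (0.988) and LEA7 (0.983), at 32.8 ± 14.9 FPKM in heated and 20.2 ± 4.72 FPKM in control ski2 dcl4 (SD, n = 3 each). The closest gene to RD29A was P5CS1 (0.98), the proline synthesis enzyme, at 566 ± 97.5 FPKM in control ski2 dcl4, against 114 ± 23.2 FPKM in control Col-0. LTP3 had its own neighbours, led by the copper amine oxidase CuAO1 (0.981), which had a lower mean after heat than at control in ski2 dcl4 (13.6 ± 2.09 against 17.6 ± 0.963 FPKM) and in Col-0 (3.83 ± 0.487 against 7.43 ± 0.106 FPKM) as LTP3 was. The RAB18 list held 3 loci without a name in the annotation, led by AT2G35070 (0.984).

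The wider ABA pathway moved in ski2 dcl4 seedlings as well. Of 14 other LEA genes tested, 14 rose after heat and 13 at control relative to Col-0, and none fell; over all tested genes 22.3% rose and 17.2% fell after heat, and 16.1% rose and 17.1% fell at control. Of 13 other ABA targets, 12 rose in each condition and none fell. Among 25 genes of ABA perception and signalling, 15 rose and 6 fell after heat, and 14 rose and 4 fell at control; of 10 ABA metabolism genes, 7 rose in each condition and none fell. At control the median log2 change was 1.23 for the other LEA genes, 1.90 for the targets, 0.53 for signalling and 0.82 for metabolism, beside 0.00 over all tested genes. The lists were drawn up with earlier results of these data known.

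Among the other LEA genes after heat, LEA4-5 was at 185 ± 91.3 FPKM in ski2 dcl4, against 0.956 ± 0.307 FPKM in Col-0 (SD, n = 3 each). It was also named for its likeness to the members over all 30 libraries, these included, so no test is given for it. KIN1, a cold- and ABA-induced gene, was at 236 ± 27.5 against 22.1 ± 7.61 FPKM (limma adjusted p = 7.7e-10). GolS2, which makes galactinol, was at 59.6 ± 20.1 against 2.96 ± 0.832 FPKM, and the homeobox factor HB-7 at 135 ± 44.9 against 15.6 ± 0.993 FPKM. HAI1 and ABI2, clade A PP2C phosphatases that hold the pathway back, were at 34.0 ± 17.8 against 1.48 ± 0.338 FPKM and at 17.5 ± 5.65 against 3.11 ± 0.692 FPKM. At control the ABA 8′-hydroxylases CYP707A4 and CYP707A1, which break the hormone down, were at 8.85 ± 2.56 against 1.48 ± 0.656 FPKM and at 10.3 ± 3.28 against 3.34 ± 0.416 FPKM in ski2 dcl4 and Col-0.

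These genes too were lower with DCL2 mutated. Relative to ski2 dcl4, 13 of 14 other LEA genes fell after heat and 12 at control, and none rose. Of 13 targets, 11 fell after heat and 12 at control, and none rose. Among all tested genes 21.2% fell and 15.6% rose after heat, and 11.2% fell and 15.2% rose at control. LEA4-5, again given without a test, was at 1.65 ± 0.706 FPKM in control ski2 dcl4 dcl2, against 110.3 ± 46.8 FPKM in control ski2 dcl4. HAI1 was at 2.70 ± 0.625 against 24.3 ± 7.71 FPKM (SD, n = 3 each, limma adjusted p = 5.7e-07). Against Col-0, no gene of these lists was called in control ski2 dcl4 dcl2 seedlings, where only 1.66% of all tested genes were.

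In the libraries labelled smxl4 smxl5 the lists held calls in both directions at control, where 15.3% of all tested genes were higher and 14.8% lower than in Col-0. Among the other LEA genes 3 of 14 rose and 6 fell, among the targets 1 of 13 rose and 4 fell, among the signalling genes 6 of 25 rose and 8 fell, and of 10 metabolism genes none rose and 5 fell. LEA4-5 was named for its likeness to the members over all 30 libraries, these included, so no test is given for it here. It was at 4.28 ± 1.34 FPKM, against 0.858 ± 0.498 FPKM in Col-0 (SD, n = 3 each). LEA14 was at 28.5 ± 2.03 FPKM, against 84.5 ± 7.33 FPKM in Col-0, and COR15B, a chloroplast LEA-type protein, at 0.848 ± 0.310 against 9.28 ± 1.57 FPKM (SD, n = 3 each; limma adjusted p = 5.22e-08 and 4.24e-07). P5CS1 was at 33.6 ± 6.92 against 114 ± 23.2 FPKM, the kinase SNRK2.3 at 18.8 ± 1.67 against 45.5 ± 1.73 FPKM and the bZIP factor ABF1 at 4.87 ± 0.287 against 18.2 ± 1.18 FPKM. In smxl6 smxl7 smxl8 at control 5 of 14 other LEA genes fell and 1 rose, with COR15B at 0.584 ± 0.250 FPKM. Among all tested genes 13.2% fell and 13.4% rose there.

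**Figure D4:**
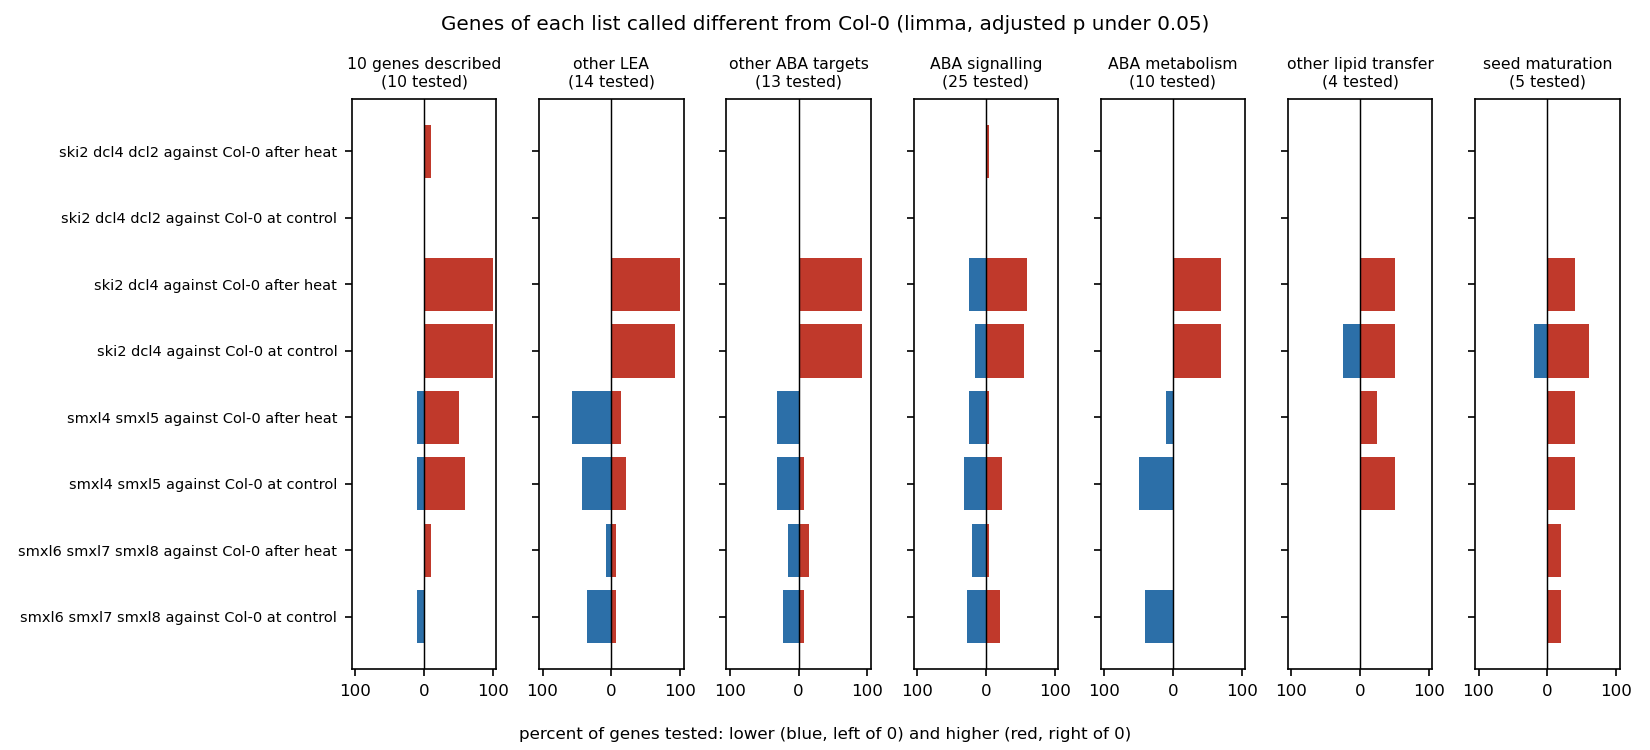
Percent of tested genes in each list that were higher (red, to the right) or lower (blue, to the left) than in Col-0, for 8 comparisons of a genotype with Col-0. The other LEA genes and ABA targets run almost wholly to the right in ski2 dcl4 (13 of 14 and 12 of 13 at control) and more to the left in the libraries labelled smxl4 smxl5 (6 of 14 and 4 of 13 at control).

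Other lipid transfer genes fell with heat too. In each of the 5 genotypes 3 of the 4 others tested fell, where 23.6% to 27.3% of all tested genes did. LTP1, the most abundant of them, did not: it was at 2894 ± 341 FPKM after heat, against 2285 ± 169 FPKM at control, in ski2 dcl4 (SD, n = 3 each; limma adjusted p = 0.0191; the call was lost without heat replicate 3, at 0.104, without control replicate 2, at 0.0857, and with upper-quartile rescaling, at 0.143) and at 2019 ± 191 against 1729 ± 156 FPKM in Col-0 (adjusted p = 0.112). In Col-0, LTP6 was at 38.3 ± 0.118 FPKM after heat, against 190.2 ± 19.5 FPKM at control, and LTP5 at 79.6 ± 16.2 against 208 ± 14.7 FPKM (SD, n = 3 each; limma adjusted p = 5.53e-10 and 6.17e-08). In ski2 dcl4 these genes were not all higher: LTP2 was at 334 ± 31.4 FPKM in control ski2 dcl4, against 192 ± 8.10 FPKM in control Col-0, and LTP6 was lower, at 125 ± 31.3 against 190.2 ± 19.5 FPKM (limma adjusted p = 0.000193 and 0.0105); the LTP6 call was lost without ski2 dcl4 control replicate 1 or Col-0 control replicate 3.

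Since several of these proteins are abundant in seed, seed storage and oil body genes were read in the same libraries. Of 11 such genes 5 were tested; the summed level of all 11 was 6.45 to 7.99 FPKM in heated and 1.65 to 16.8 FPKM in control ski2 dcl4, against 1.34 to 2.26 FPKM in heated and 1.98 to 2.22 FPKM in control Col-0. Relative to Col-0, 2 of the 5 rose in ski2 dcl4 after heat, where 22.3% of all tested genes rose and 17.2% fell. At control 3 rose and 1 fell, where 16.1% of all tested genes rose and 17.1% fell. The cruciferin gene CRA1 was at 2.83 ± 3.44 FPKM in control ski2 dcl4, against 0.0781 ± 0.0301 FPKM in control Col-0 (SD, n = 3 each), with overlapping groups. OLEO4 was the gene that fell, to 0.756 ± 0.125 against 1.58 ± 0.0688 FPKM, without overlap (limma adjusted p = 0.00937). SESA2 was not called, at 0.0814 ± 0.0812 against 0.0583 ± 0.0505 FPKM. CRB, CRC and SESA3, not among the 5 tested, were listed at 0 in Col-0. The sums in control libraries labelled smxl4 smxl5 (7.80 to 34.0 FPKM) and control ski2 dcl4 dcl2 (5.98 to 12.3 FPKM) were above those of control Col-0 too. Green shoot genes summed to 11354 to 12470 FPKM in control ski2 dcl4, against 15512 to 17991 FPKM in control Col-0, and root genes to 69.1 to 75.3 FPKM, against 69.3 to 70.0 FPKM. The part of tissue make-up in the changes of the 10 genes was not tested.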

How the data were processed

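The authors deposited 1 table of FPKM values for 38088 genes in 30 libraries (10 groups of 3). The unit is not named in the labels and was taken from the values: the smallest value of 1854 rare genes fell with transcript length (Spearman correlation across genes -0.986), the columns summed to unequal totals, and the step between low values corresponds to an estimated 11.6 to 19.8 reads per FPKM and kilobase. Alignment used Bowtie, per the submitters' processing notes; no version was named, and the counting method, strand use, build and gene models were not given in the sources used here. Counts were not analysed here, so no count test was run, and no interval for counting error is given.

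The 21531 genes that reached 1 FPKM in 3 or more libraries were tested with limma 3.58.1 (R 4.3.3) on log2(FPKM + 1), with a pseudocount of 1, 1 mean per group over all 30 libraries and an intensity trend, two-sided, adjusted by Benjamini-Hochberg within each of 19 comparisons; the procedure was checked on simulated data. Fold changes are ratios of mean FPKM. All 10 genes passed the filter, 8 without the ski2 dcl4 libraries. Named list genes are at most the 2 with the smallest adjusted p per comparison, and genes most like a member the 3 with the highest Pearson correlation; tissue lists are given as sums with examples chosen after their values were seen. The members and lists were chosen with earlier results of these data known; the overlapping genes were added after the files were read. Locus identifiers matched RefSeq TAIR10.1 for 37792 genes (99.2%), used for names, gene models and upstream sequence (Biopython 1.88). Alternatives were another pseudocount (0.1), no filter or a filter of 5 FPKM, upper-quartile and median-of-ratios rescaling, only the libraries compared, a replicate block, and each library left out.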

Additional observations from a re-analysis of the deposited data

Results flagged for a closer look

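None of the 10 genes had a heat change that differed between a mutant and Col-0 past the threshold. Among 91 tested genes of the lists read beside them, including the mutated genes, 4 did under the smxl4 smxl5 label (4.40%) and 7 in the smxl6 smxl7 smxl8 seedlings (7.69%), where 2.08% and 5.29% of all tested genes did, and none did in ski2 dcl4 dcl2 or ski2 dcl4 (limma, adjusted over all tested genes). Values are the mutant heat change minus the Col-0 heat change on the log2 scale.

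In the libraries labelled smxl4 smxl5 these were the ABA receptor gene PYR1, at -0.57 ± 0.14 (SE, adjusted p = 0.0396), the seed storage gene SESA2, at -2.22 ± 0.59 (adjusted p = 0.0488), and the mutated genes SMXL4, at -1.16 ± 0.16 (adjusted p = 0.000612), and SMXL5, at -1.55 ± 0.12 (adjusted p = 7.87e-08). In smxl6 smxl7 smxl8 they were the receptor genes PYL4 at -1.05 ± 0.26 (adjusted p = 0.0226), PYL5 at -1.30 ± 0.33 (adjusted p = 0.0241) and PYR1 at -0.49 ± 0.14 (adjusted p = 0.0472), the ABA hydroxylase CYP707A2 at 1.31 ± 0.34 (adjusted p = 0.0275), the chloroplast LEA-type gene COR15B at 1.38 ± 0.39 (adjusted p = 0.0385), the Rubisco activase gene RCA at -0.56 ± 0.15 (adjusted p = 0.032) and the mutated gene SMXL7 at -1.13 ± 0.14 (adjusted p = 0.000193). All 11 kept their sign under every alternative in which they were tested; SMXL4, SMXL5 and SMXL7 kept their calls, and each of the other 8 lost its call under some setting. The highest adjusted p was 0.0618 for PYL4, 0.0705 for CYP707A2, 0.081 for PYL5, 0.203 for COR15B and 0.277 for RCA, and 0.271 for SESA2; for PYR1 it was 0.117 in smxl4 smxl5 and 0.142 in smxl6 smxl7 smxl8.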

How the results depend on the processing

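Of the 190 pairs of a gene and a comparison, 72 were called; 53 of these stayed called under every alternative in which the gene was tested, and none changed sign. For the 8 genes that passed the filter without ski2 dcl4, all pairs of ski2 dcl4 against Col-0 and against ski2 dcl4 dcl2 were among the 53. The 72 and the 53 also count these pairs for EM1 and EM6. EM1 and EM6 were tested there only because ski2 dcl4 was high, so their calls are not support. The filter of 5 FPKM left 9 genes to test. Of the 118 pairs not called, 31 changed sign and 9 were called under some setting. The counts that moved by over 1.5 times were these. With the pseudocount of 0.1, 4 genes were called for heat in ski2 dcl4 in place of 9; with no filter or upper-quartile rescaling, 1 was called for heat in ski2 dcl4 dcl2 in place of 2. With the spread from only the libraries compared, the count was 1 in place of 6 for smxl4 smxl5 after heat and 0 in place of 1 for smxl6 smxl7 smxl8 at control, for smxl6 smxl7 smxl8 after heat and for ski2 dcl4 dcl2 against Col-0 after heat. Leaving out 1 library gave 5 to 8 calls for heat in ski2 dcl4, 1 to 2 for heat in ski2 dcl4 dcl2 and in smxl6 smxl7 smxl8, 0 to 2 for smxl6 smxl7 smxl8 after heat and 0 to 1 for ski2 dcl4 dcl2 against Col-0 after heat. The LTP4 interaction of ski2 dcl4 was 0.11 with the pseudocount of 0.1 and -0.35 with 1. The causes were not tested.

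Same-numbered libraries of different groups did not deviate together (135 pairs, correlations -0.197 to 0.215, median -0.00921), so the numbers do not pair them. With the replicate block, 71 of the 72 calls stayed; ABR in ski2 dcl4 with heat was lost (adjusted p = 0.0572). Of 71 other list-gene results, 6 lost their call under some setting. FPKM gives no counts, so values near 0 have unknown counting error.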
